A study of Mus musculus with 12 samples.

Results

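Bulk-only regions are stretches of open chromatin listed in SOX2- cells of mouse SHH medulloblastoma and in no library of SOX2+ cells. They were chosen by merging the peaks of all 12 libraries that overlapped by at least 1 bp on 19 autosomes and chromosome X, and by keeping regions with a peak in at least 3 of 4 SOX2- libraries and in 0 of the 8 libraries of SOX2+ cells. The rule kept 342 of 44242 merged regions (0.773%). The choice used the peak calls themselves, so the presence of these peaks in SOX2- cells and their absence from SOX2+ cells describe the choice and carry no test.

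Cells were sorted from endpoint tumours of untreated Ptch1+/- mice, which are heterozygous for the hedgehog receptor gene Ptch1, and all groups share this genotype. One sort gave 4 libraries of SOX2- and 4 of SOX2+ cells, and another split SOX2+ cells into MKI67- and MKI67+, with 2 libraries of each. Per the labels, eGFP marked SOX2, a transcription factor of stem-like cells, and RFP marked MKI67, a protein of cycling cells. The sources used here name no reporter allele, age of the mice or pooling of animals, and they do not say whether each replicate was its own animal. ATAC-seq, which tags accessible DNA with a transposase, was run on 35000 to 50000 cells per reaction with single-end reads of 50 bp.

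SHH medulloblastoma arises in the cerebellum from granule neuron progenitors, in which the factors ATOH1, BARHL1 and NHLH1 act during the making of granule neurons. SOX2+ cells are a small stem-like compartment that cycles slowly and gives rise to the rapidly dividing progenitors and neuron-like cells of the bulk. Open chromatin away from gene starts often marks enhancers, which differ between cell types more than promoters do.

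The lists held 7009 to 26206 peaks in SOX2- libraries and 9377 to 25272 in SOX2+ libraries of all sorts. The sequencing depth is unknown, and an unlisted region may lie just under the threshold of its list, so that closed chromatin was not measured as such. A region open in few cells and a region weakly open in many cannot be told apart in such bulk libraries. The Sox2 locus, which checks the sort, had 0, 1, 1 and 1 regions in SOX2- replicates 1 to 4 and 2 to 6 in the 8 SOX2+ libraries. No replicate pair was a repeated deposit, as at most 0.0298% of peaks had identical coordinates in any pair of lists.

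Few bulk-only regions lay at a promoter, and the sequences of those that did are shown because they are the members whose DNA could be read. RefSeq promoter windows, which run from 250 bases before to 50 bases after a gene start on GRCm38.p6, overlapped 12 of the 325 regions on the chromosomes searched. The windows belonged to 13 genes, of which Slit3, Ttyh2, Prkcd and Aldh1a2 are protein-coding and the others are lncRNA genes. Slit3 encodes a secreted ligand of ROBO receptors that guides axons, Prkcd encodes protein kinase C delta, and Ttyh2 encodes a membrane protein of the tweety family. The bases before the start that fell inside the region are printed 5′ to 3′ on the gene's own strand. They cover chr11:35121206-35121455 (plus strand) for Slit3, chr14:30626209-30626458 (minus strand) for Prkcd and chr11:114675311-114675467 (plus strand) for Ttyh2.
Slit3: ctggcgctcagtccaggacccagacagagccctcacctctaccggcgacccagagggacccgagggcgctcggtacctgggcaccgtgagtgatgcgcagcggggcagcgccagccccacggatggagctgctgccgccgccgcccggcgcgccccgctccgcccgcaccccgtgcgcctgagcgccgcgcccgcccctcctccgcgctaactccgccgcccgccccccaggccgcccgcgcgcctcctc
Prkcd: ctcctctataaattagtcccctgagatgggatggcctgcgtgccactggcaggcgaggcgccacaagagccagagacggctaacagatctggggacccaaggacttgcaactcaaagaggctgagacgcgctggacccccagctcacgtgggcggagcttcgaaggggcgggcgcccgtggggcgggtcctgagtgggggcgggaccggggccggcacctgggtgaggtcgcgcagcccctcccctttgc
Ttyh2: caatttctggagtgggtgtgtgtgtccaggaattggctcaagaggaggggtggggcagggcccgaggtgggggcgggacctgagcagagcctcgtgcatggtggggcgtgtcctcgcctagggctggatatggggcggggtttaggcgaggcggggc

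The lncRNA genes Gm33669 (chr1:181878226-181878475, plus strand) and Gm52262 (chr16:91904259-91904508, minus strand) had windows wholly inside a bulk-only region and are shown because they held motif matches. Capitals mark the matches, which are CAGATG and CAGCTG, both E-boxes of the kind bound by neuronal bHLH factors, and TTGGCA, a half-site of nuclear factor I, each on either strand. Windows of Gm3458, with CAGATG, and of Gm41053, with TTGGCA, also held a match and are not shown.
Gm33669: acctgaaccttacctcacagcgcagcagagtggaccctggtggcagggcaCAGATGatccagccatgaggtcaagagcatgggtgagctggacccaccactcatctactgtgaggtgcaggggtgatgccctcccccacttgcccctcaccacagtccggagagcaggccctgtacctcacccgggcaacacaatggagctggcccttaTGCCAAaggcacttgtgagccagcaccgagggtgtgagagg
Gm52262: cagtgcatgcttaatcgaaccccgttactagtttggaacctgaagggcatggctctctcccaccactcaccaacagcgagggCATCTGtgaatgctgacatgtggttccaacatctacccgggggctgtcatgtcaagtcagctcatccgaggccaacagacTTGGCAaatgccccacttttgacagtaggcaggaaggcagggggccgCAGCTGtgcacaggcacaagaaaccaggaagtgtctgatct

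Over the 10 promoter sequences with enough bases inside a region, the GC content ran from 44.0% to 78.8%. It was 78.8% in the Slit3 sequence, 67.6% in Prkcd, 66.9% in Ttyh2, 61.2% in Gm33669 and 54.8% in Gm52262, beside a median of 52.4% in the 250 bases before all 32851 starts of the table. Gm29398 (44.0%) and Gm41053 (51.9%), whose sequences are not printed, lay below that median. Motifs were searched as exact letters on both strands in the 10 windows with at least 150 bp inside a region. These include overlapping windows of the same gene, Gm3458, so they are not 10 separate promoters. CAGATG matched 3 windows, TTGGCA matched 3 and CAGCTG matched 1, while these motifs were present before 14.4%, 12.3% and 13.0% of all starts. The other 8 motifs matched 0 of the 10, which says only that those letters are not in these windows. They were the E-box CATATG, the SOX core AACAAT, the homeobox core TAATTA, the AP-1 site TGANTCA, the CREB site TGACGTCA, the GLI site TGGGTGGTC, an RFX site and the full palindrome of nuclear factor I. TTGGCA shares its opening letters with that palindrome, and the capitalised matches in these windows did not overlap one another.

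Away from promoters, bulk-only regions lay in gene bodies and between genes. Of the 342 regions, 18 (5.26%, 95% exact interval 3.15 to 8.19) had their midpoint within 1 kb of an end of a protein-coding gene span, 148 (43.3%, 38.0 to 48.7) lay elsewhere inside a span and 176 (51.5%, 46.0 to 56.9) lay between genes. These intervals cover counting error only, and exons were not told from introns because the gene table holds spans. Over all merged regions the shares were 27.3%, 38.5% and 34.2%. Among 5889 other regions listed in 3 or 4 of the 12 libraries, which are as rarely listed, 14.0% lay at gene ends, and among 1814 regions of the reverse kind, with peaks in no fewer than 3 of 4 SOX2+ lists and in none of the 4 SOX2- lists (4.1% of merged regions), 10.7% did. The gene-end share of regions meeting the rule was 8.70% among the 23 listed in all 4 SOX2- libraries, 9.92% among peaks in the upper 50% of each list by score and 18.4% with equal numbers of peaks per list, so its size depends on the peaks admitted. The upper 50% and equal-number choices gave 131 and 282 regions, of which 18 and 13 were among the 342, so these are mostly other regions. These differences are between sets of regions and were not tested. They are drawn in the plot of region positions.

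**Figure D1:**
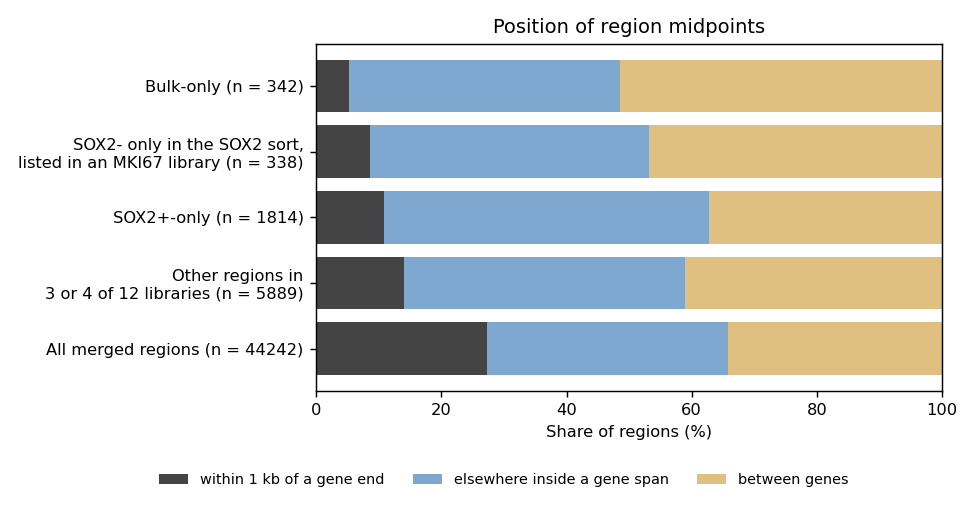
Stacked bars give the share of regions, in percent on the horizontal axis, at gene ends (dark grey), elsewhere inside gene spans (blue) and between genes (tan), for 5 sets of regions on the vertical axis. The gene-end part is 5.26% in bulk-only regions and 27.3% in all merged regions.

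No protein-coding gene lay within 100 kb of 59 bulk-only regions (17.3%), compared with 9.84% of all merged regions and 10.7% of the reverse kind. The share was 19.2% in the most similar set, so it is not particular to bulk-only regions. That set is 338 regions chosen alike in the SOX2 sort but listed in an MKI67 library. Where a region lay inside a gene span, the gene was long. With a gene counted once per region, the median span was 149 kb for bulk-only regions and 129 kb for those 338 regions. It was 119 kb for regions of the reverse kind and 75.1 kb for all merged regions. The median of all protein-coding genes, each counted once, was 17.3 kb and is not a like measure. The regions were 268 to 1056 bp wide with a median of 481 bp. They were scattered, as the nearest other bulk-only region was 2131 kb away at the median and 16 had another within 100 kb. The nearest peak of any SOX2+ library was 19.9 kb away at the median, and 16 regions (4.68%) had one within 1 kb, so that few were flanks of a peak of SOX2+ cells. With the 4 SOX2+ libraries of the SOX2 sort alone, the median was 24.7 kb. For the reverse kind the nearest peak of the 4 SOX2- libraries was 19.6 kb away at the median. The distance to any of 8 libraries is not a like measure to this.

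Bulk-only regions ranked from the bottom to near the top of the SOX2- lists. The authors' score, which ranks peaks within a list, was turned into a percentile of that list. The median percentile of bulk-only regions was 10.7 in SOX2- replicate 1 (51 regions listed), 55.9 in replicate 2 (342), 23.0 in replicate 3 (315) and 36.5 in replicate 4 (341). Replicate 2, with the longest list, was the 1 library where their median stood above the middle of the list. Their mean over the 4 libraries was 31.5 ± 19.4 (SD, n = 4), other regions listed in 3 or 4 of the 12 libraries had 29.5 ± 7.42, and regions listed in all 12 had 77.6 ± 12.9. These SDs are spreads between libraries. By library, the other regions listed in 3 or 4 of the 12 had medians of 21.9, 37.3, 24.7 and 34.3 in replicates 1 to 4. Bulk-only regions thus stood lower than these in replicate 1, higher in replicate 2 and close to them in replicates 3 and 4. The highest percentile of any bulk-only region was 91.9, in replicate 2. Fold enrichment over the local background had medians of 3.60, 4.41, 3.72 and 3.94 in replicates 1 to 4, with a highest value of 8.84. The summits of a region lay within a median range of 114 bp over the SOX2- libraries, beside 104 bp in other regions listed by at least 3 of them.

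**Figure D2:**
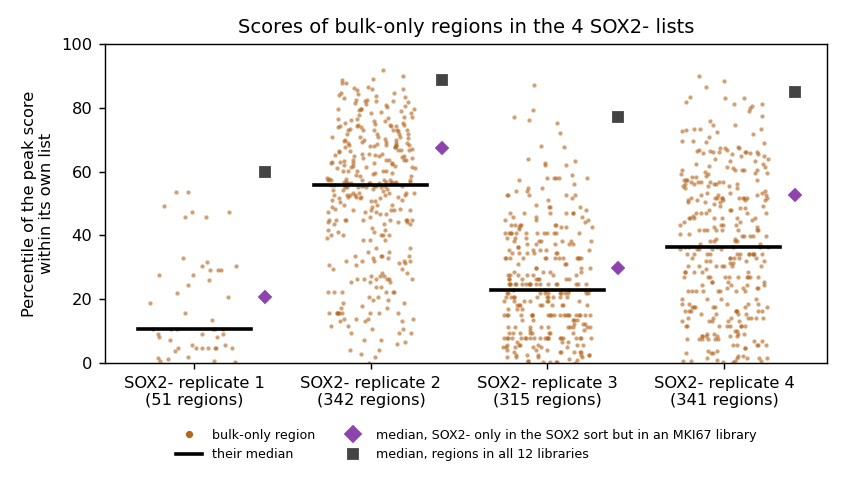
Each dot is a bulk-only region, placed by the percentile of its peak score within the list of that SOX2- library (vertical axis, 0 to 100), with horizontal position spread at random inside a library. Black lines are medians (10.7, 55.9, 23.0 and 36.5 in replicates 1 to 4), diamonds and squares are medians of 2 other sets of regions, and the squares of regions listed in all 12 libraries stand above the black line in every library.

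Membership therefore rested on SOX2- replicates 2, 3 and 4. Of the 342 regions, 291 were listed in replicates 2, 3 and 4 alone, 27 in replicates 1, 2 and 4, 1 in replicates 1, 2 and 3, and 23 in all 4. Just inside the rule stood 319 regions with 3 SOX2- libraries, and just outside it stood 2280 regions with 2 SOX2- libraries and 0 of 8 SOX2+ libraries. On the other side, 329 regions with at least 3 SOX2- libraries had a peak in exactly 1 of the 8. Keeping as many top-scoring peaks of each list as the shortest holds left 282 regions under the same rule, and 13 of the 342 were among them. Peaks with a -log10 q-value of at least 5 left 219 regions, with 85 of the 342 among them. Peaks in the upper 50% of each list by score left 131, with 18 of the 342 among them, and 8 of the 342 met the rule under each of these 3 stricter choices.

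Each library was also left out of the choice in turn, and the chosen regions were looked for in it. With the rule asked of the other 3 SOX2- libraries, 23 of 23 chosen regions were listed in replicate 2, 23 of 24 (95.8%) in replicate 4, 23 of 50 (46.0%) in replicate 3 and 23 of 314 (7.32%) in replicate 1. Of the other regions that the same 3 libraries listed, those with a peak in SOX2+ cells, 99.9% were listed in replicate 2, 99.5% in replicate 4, 95.2% in replicate 3 and 61.0% in replicate 1. Bulk-only regions were thus listed less often than these other regions in replicates 1 and 3, which have the shortest SOX2- lists. The other regions are not matched for score. They number 6340 to 10380 and include the 5397 regions listed in all 12 libraries. The median score percentile of those 5397 averaged 77.6 over the SOX2- libraries, beside 31.5 for bulk-only regions. No comparison with regions of like score was made, so the part of peak strength in these gaps was not tested. In replicates 2 and 4 the exact intervals, 85.2% to 100% and 78.9% to 99.9%, held the share of the other regions.

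In the SOX2+ libraries the left-out shares differed between libraries of 1 sort as well as between sorts. They were 1.16%, 0.292%, 18.6% and 7.07% in SOX2+ replicates 1 to 4, and 21.0% (91 of 433) and 27.4% (129 of 471) in SOX2+/MKI67+ replicates 1 and 2. In both SOX2+/MKI67- libraries 0 of 342 were listed, which allows a share of up to 0.877% by a limit of 3 counts and 1.07% by the 95% exact interval. For scale, SOX2+ replicate 1 listed 37.0% of all merged regions, replicate 2 listed 20.9%, replicate 3 listed 43.5% and replicate 4 listed 56.1%. Each MKI67 library listed between 39.1% and 54.8% of them. Replicate 4 of SOX2+ cells thus had a larger share of all merged regions than replicate 3, but a smaller left-out share. The chosen regions were required to be absent from the other 7 SOX2+ libraries, so low left-out shares follow in part from the choice, and no test was made.

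**Figure D3:**
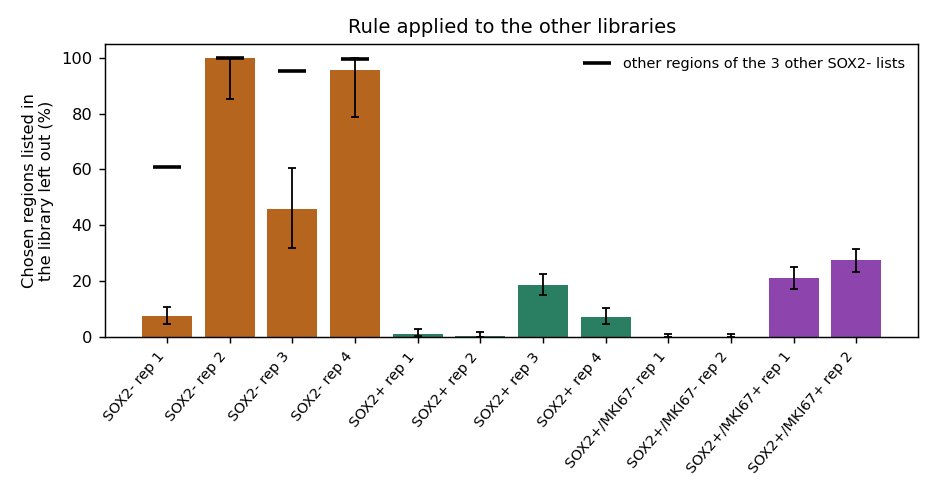
Bars give the percentage of chosen regions listed in the library left out of the choice (vertical axis) for each of the 12 libraries, with 95% exact binomial intervals for counting error, and black dashes give, for the SOX2- libraries, the share of the other regions of the 3 other SOX2- lists. Bars stand well under the dash in SOX2- replicates 1 and 3 (7.32% and 46.0%) and are at 0 in both SOX2+/MKI67- libraries. The other regions include those listed in all 12 libraries and are not matched for score.

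Regions missing from SOX2+ cells were more often listed in the cycling than in the non-cycling SOX2+ cells. Chosen in the SOX2 sort alone, without those 4 libraries, 680 regions had a peak in no fewer than 3 of 4 SOX2- lists and in none of the 4 SOX2+ lists (1.54% of merged regions). Of these, 11 (1.62%) and 3 (0.441%) were listed in SOX2+/MKI67- replicates 1 and 2, and 202 (29.7%) and 246 (36.2%) in SOX2+/MKI67+ replicates 1 and 2. These shares did not overlap between the groups. Of all merged regions, 42.5% and 39.1% were listed in SOX2+/MKI67- replicates 1 and 2, and 41.4% and 54.8% in SOX2+/MKI67+ replicates 1 and 2. The replicate 1 lists were of like length, with 19229 peaks in SOX2+/MKI67- and 18738 in SOX2+/MKI67+. The replicate 2 lists were not, with 17615 and 24694 peaks. The mean shares of the 680 regions were 32.9% in SOX2+/MKI67+ and 1.03% in SOX2+/MKI67- libraries. The two-sided exact permutation test of 2 libraries against 2 gave p = 0.333, the smallest it can give. All 338 regions that left the class were listed in a SOX2+/MKI67+ library, 13 of them also in a SOX2+/MKI67- library, and the 342 bulk-only regions are the remaining 50.3%. Of the 338, 8.58% lay at gene ends, 44.7% inside genes and 46.7% between genes, and they had a higher median score percentile in each SOX2- library (20.6, 67.4, 29.8 and 52.6 in replicates 1 to 4).

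Bulk-only regions were assigned to the nearest protein-coding gene, by midpoint, inside the span or within 100 kb. They fell on 273 genes (1.26% of 21631), 263 with 1 region and 10 with 2, and no gene had 3 or more. Assignment by distance does not show which gene a region acts on. Of the 273 genes, 251 had another region listed in at least 1 of the 8 SOX2+ libraries, and 62 also had a region of the reverse kind (6.21% of all genes had one). That share is over all protein-coding genes, also those with no region, so it is not a like measure. Among all 13394 genes with a region in a SOX2- library, 4.21% had none in any SOX2+ library.

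Bulk-only regions lay at 14 genes of the lists. At the 1.26% of all genes, a list of 40 genes holds fewer than 1 such gene, so counts of 0 or 1 are not told from the background. A bulk-only region lay at 3 of 25 granule neuron progenitor genes, 3 of 25 neuronal differentiation genes, 5 of 40 axon guidance and adhesion genes and 1 of 22 hedgehog pathway genes. The hedgehog gene, Boc, is also 1 of the 3 granule neuron progenitor genes. Regions of the reverse kind lay at 1, 1, 11 and 0 of them. At 20 stem and progenitor genes the counts were 0 bulk-only and 9 of the reverse kind, at 19 Notch pathway genes 0 and 6, and at 28 cell cycle genes 0 and 3. Oligodendrocyte genes had 1 and 7 of 15, and astrocyte and Bergmann glia genes 1 and 8 of 16. Of all genes, 6.21% had a region of the reverse kind. Its rule asks for absence from 4 libraries and not from 8, so the 2 counts are not on 1 scale. Both counts come from the peak calls that chose the regions, so they describe where the chosen regions fell. Shares of genes do not allow for the number of regions at a gene. The granule neuron progenitor, neuronal differentiation, axon guidance and hedgehog lists held 137, 168, 362 and 98 regions. Of these, 3, 4, 6 and 1 were bulk-only, beside 0.773% of all merged regions. Regions of the reverse kind numbered 1, 2, 12 and 0, beside 4.1% of all merged regions. The stem and progenitor, Notch, cell cycle, oligodendrocyte, and astrocyte and Bergmann glia lists held 75, 86, 86, 66 and 64 regions. Of these, 12, 8, 3, 15 and 10 were of the reverse kind, and 0, 0, 0, 1 and 1 were bulk-only. No enrichment was tested.

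Lists of other cell types held 0 or 1 gene with a bulk-only region, which is not told from the 1.26% of all genes. A bulk-only region lay at 1 of 7 unipolar brush cell genes and at none of the 11 Purkinje cell, 12 interneuron, 14 microglia and macrophage, 10 lymphocyte, 13 endothelial and mural, 10 fibroblast and 8 ependymal genes, nor of the 15 housekeeping genes. Of every 10000 regions, microglia and macrophage genes took 0 to 1.55 in SOX2- libraries and 1.56 to 3.22 in SOX2+ libraries, and 10 of the 14 were listed at 0 in every SOX2- library. Lymphocyte genes took 0 to 0.387 in SOX2- and 0 to 0.412 in SOX2+ libraries, with 9 of 10 at 0 in every SOX2- library.

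The loci of Barhl1, Nhlh1 and Otx2, which encode transcription factors, had no region or 1 region in each SOX2+ library. Locus counts leave out the bulk-only regions, whose listing the rule fixed. Barhl1, a homeobox factor of granule neuron progenitors, had a bulk-only region inside its span at chr2:28915528-28916116 with -log10 q-values of 4.64, 6.16 and 8.14 in SOX2- replicates 1, 2 and 4. Other regions at the Barhl1 locus numbered 0, 2, 0 and 1 in SOX2- replicates 1 to 4 and 0 in each of the 8 SOX2+ libraries. Replicates 1 and 3 were at the level of the SOX2+ libraries, so the groups overlapped.

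Nhlh1, a bHLH factor of newborn neurons, had a bulk-only region 3.36 kb before its start, at chr1:172060739-172061183, with -log10 q-values of 14.1, 3.17 and 5.72 in SOX2- replicates 2, 3 and 4. The Nhlh1 locus had 1, 2, 0 and 1 other regions in SOX2- replicates 1 to 4, 1 in SOX2+/MKI67+ replicate 2 and 0 in the other 7 SOX2+ libraries, so that the groups overlapped. Otx2 encodes a homeobox factor of other medulloblastoma subgroups and is in the unipolar brush cell list. It had a bulk-only region 6.95 kb before its start at chr14:48674335-48674855 (-log10 q-values of 8.12, 4.37 and 5.76 in replicates 2, 3 and 4). The Otx2 locus had 0, 5, 1 and 3 other regions in SOX2- replicates 1 to 4, 1 in SOX2+/MKI67+ replicate 1 and 0 in the other 7 SOX2+ libraries, so that SOX2- replicates 1 and 3 matched SOX2+ libraries.

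Hedgehog and reelin genes kept other regions in SOX2+ cells. Boc, a co-receptor that helps cells receive the hedgehog ligand, had a bulk-only region 54.0 kb outside its span at chr16:44612703-44613080, with -log10 q-values of 22.6, 7.59 and 8.68 in SOX2- replicates 2, 3 and 4. The other regions at Boc numbered 0, 10, 1 and 8 in SOX2- replicates 1 to 4, 1, 0, 3 and 3 in SOX2+ replicates 1 to 4, 2 and 2 in SOX2+/MKI67- and 4 and 5 in SOX2+/MKI67+ replicates 1 and 2. SOX2- replicates 2 and 4 were high and replicates 1 and 3 fell within the range of SOX2+ cells. It was the 1 bulk-only region at the 22 hedgehog pathway genes.

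Reln encodes the secreted protein reelin, which granule neurons make and which guides the placement of Purkinje cells. Of its 2 bulk-only regions, both inside the gene and 187 kb apart, chr5:22093134-22093743 was listed in all 4 SOX2- libraries with -log10 q-values of 1.91, 13.2, 6.67 and 13.4. The other, chr5:22280577-22280946, was close to the threshold in replicate 2 (1.79, 5.85 and 2.63 in replicates 2, 3 and 4). Other regions at Reln numbered 2, 7, 2 and 6 in SOX2- replicates 1 to 4 and 0 to 3 in the 8 SOX2+ libraries, so that replicates 2 and 4 lay above all SOX2+ libraries and replicates 1 and 3 did not.

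Slc17a6, the vesicular glutamate transporter of developing neurons, had a bulk-only region 23.5 kb past its end at chr7:51694416-51694863 (-log10 q-values of 12.2, 3.98 and 6.03 in SOX2- replicates 2, 3 and 4). Other regions at the Slc17a6 locus numbered 0, 3, 1 and 3 in SOX2- replicates 1 to 4 and 0 to 3 per library in SOX2+ cells, so that the groups overlapped.

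Axon guidance genes included ligand, receptors and adhesion molecules. The Slit3 region whose sequence is printed above, chr11:35121059-35121809, was weak in SOX2- replicates 1 and 3 (-log10 q-values of 2.24, 7.75 and 2.96 in replicates 1, 2 and 3) and unlisted in replicate 4. A further Slit3 region 547 kb away inside the gene, chr11:35668636-35669194, had 14.6, 6.30 and 8.91 in replicates 2, 3 and 4. Robo3, a receptor of the same pathway that governs midline crossing, had a region 5.03 kb before its start at chr9:37438182-37438747 (4.32, 3.69 and 8.94 in replicates 2, 3 and 4). Other regions at Slit3 numbered 1, 16, 3 and 4 in SOX2- replicates 1 to 4 and 1 to 7 in SOX2+ libraries. At Robo3 they numbered 0, 2, 2 and 1 in SOX2- replicates 1 to 4 and 0 to 3 in SOX2+ libraries, so the groups overlapped at both loci.

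The adhesion gene Nrcam held a bulk-only region of high rank (mean score percentile 83.1), inside its span at chr12:44515013-44515474, with -log10 q-values of 25.9, 12.9 and 16.1 in SOX2- replicates 2, 3 and 4. It was among the 8 regions that also met the rule under each of the stricter choices of peaks. Plxna4, a semaphorin co-receptor, had one at chr6:32496184-32496594 (13.2, 2.83 and 5.72) and Ephb2, an ephrin receptor, at chr4:136652318-136652972 (11.4, 4.86 and 6.59), both inside the gene. These loci had other regions in SOX2+ cells, with 0 to 7 regions per library at Plxna4 and Ephb2 and 1 to 5 at Nrcam. In SOX2- replicates 1 to 4 they numbered 1, 9, 2 and 4 at Plxna4, 0, 9, 1 and 4 at Ephb2 and 0, 7, 2 and 3 at Nrcam. Replicate 2 alone stood above all SOX2+ libraries, so the groups overlapped.

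Glial loci also held members. Olig2, which specifies oligodendrocytes, had a bulk-only region 22.4 kb before its start at chr16:91202895-91203314, with -log10 q-values of 4.92, 4.47 and 11.1 in SOX2- replicates 2, 3 and 4. The other regions at Olig2 ran the opposite way, with 0, 1, 0 and 0 in SOX2- replicates 1 to 4 and 3 to 5 in each SOX2+ library. Gdf10, a TGF-beta family ligand of Bergmann glia, had one 87.0 kb before its start at chr14:33836306-33836780 (4.32, 5.28 and 2.46 in replicates 2, 3 and 4), and other regions at Gdf10 numbered 0 or 1 in SOX2- and 1 to 3 in SOX2+ libraries.

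**Figure D4:**
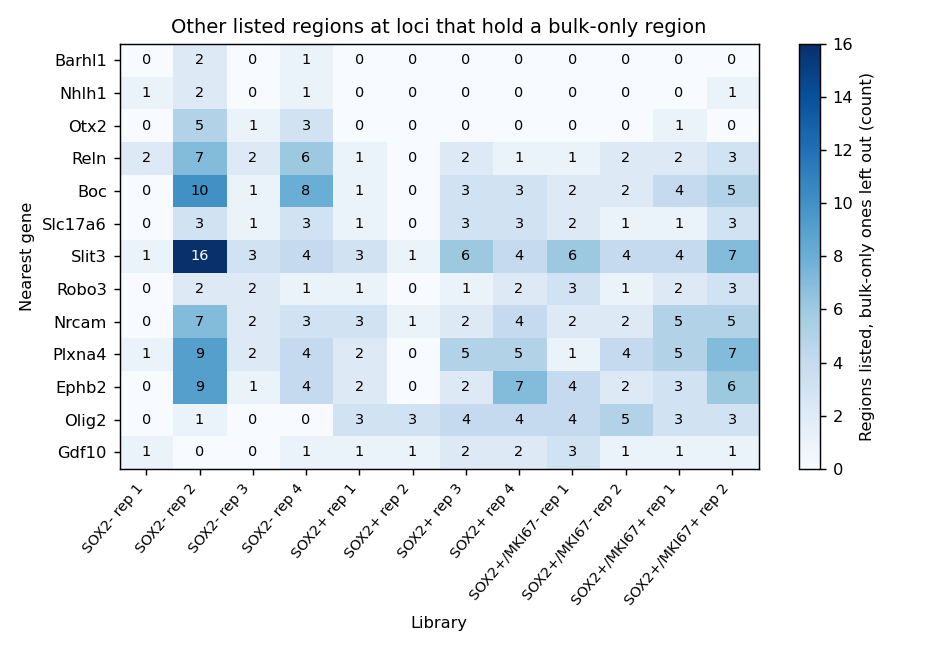
Each square counts the regions listed at a locus (nearest gene, vertical axis) in a library (horizontal axis), bulk-only regions left out, with darker blue for more. Barhl1, Nhlh1 and Otx2 are at 0 or 1 in the 8 SOX2+ libraries, and Olig2 is at 3 to 5 there and at 0 or 1 in SOX2- libraries.

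The 12 highest-ranking regions among the 23 listed in all 4 SOX2- libraries mostly lay at genes outside the lists. Git2, which encodes a GTPase-activating scaffold protein, led with a region inside its span at chr5:114753348-114753768 and -log10 q-values of 5.11, 25.5, 16.2 and 13.0 in SOX2- replicates 1 to 4. The next lay 65.0 kb from Hspa9, a mitochondrial chaperone gene, at chr18:35018971-35019639 (4.81, 20.9, 12.3 and 15.8). Both were highest in replicate 2 and lowest in replicate 1, and over the 12 regions replicate 2 was highest in 9 and replicate 1 lowest in 9.

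Lrrtm1, a synaptic adhesion gene, had a region inside its span at chr6:77240403-77240872 (4.29, 21.4, 6.90 and 17.0 in replicates 1 to 4). Sphkap, which encodes an anchor of protein kinase A, had one at chr1:83296409-83296892 (3.55, 17.0, 6.67 and 16.5). Sv2b, a synaptic vesicle gene, had one at chr7:75265173-75265692 (6.39, 21.9, 3.98 and 6.86).

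Lmo1, a LIM-only transcription regulator, had a region inside the gene at chr7:109151056-109151522 (4.92, 15.7, 4.72 and 11.9 in replicates 1 to 4). The region at the end of Cplane2, a gene of cilium formation, was chr4:141219697-141220184 (3.02, 12.7, 9.10 and 11.2), and that 80.1 kb past Dhx35, an RNA helicase gene, was chr2:158938142-158938539 (6.22, 9.77, 4.28 and 7.72). Reln, described above, completed the set together with 3 regions that had no gene within 100 kb.

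Those 3 regions lay in gene-poor DNA. They were chr10:19460140-19460614 (-log10 q-values of 6.22, 12.6, 10.0 and 11.01 in SOX2- replicates 1 to 4), chr7:135932681-135933315 (5.23, 11.7, 8.24 and 11.7) and chr2:133669740-133670271 (3.61, 13.2, 7.35 and 17.3). The region on chromosome 10 stood 102 kb from the nearest gene span, just past the limit. The regions on chromosomes 7 and 2, like those of Git2 and Hspa9, were among the 8 that met the rule under each of the stricter choices of peaks.

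**Figure D5:**
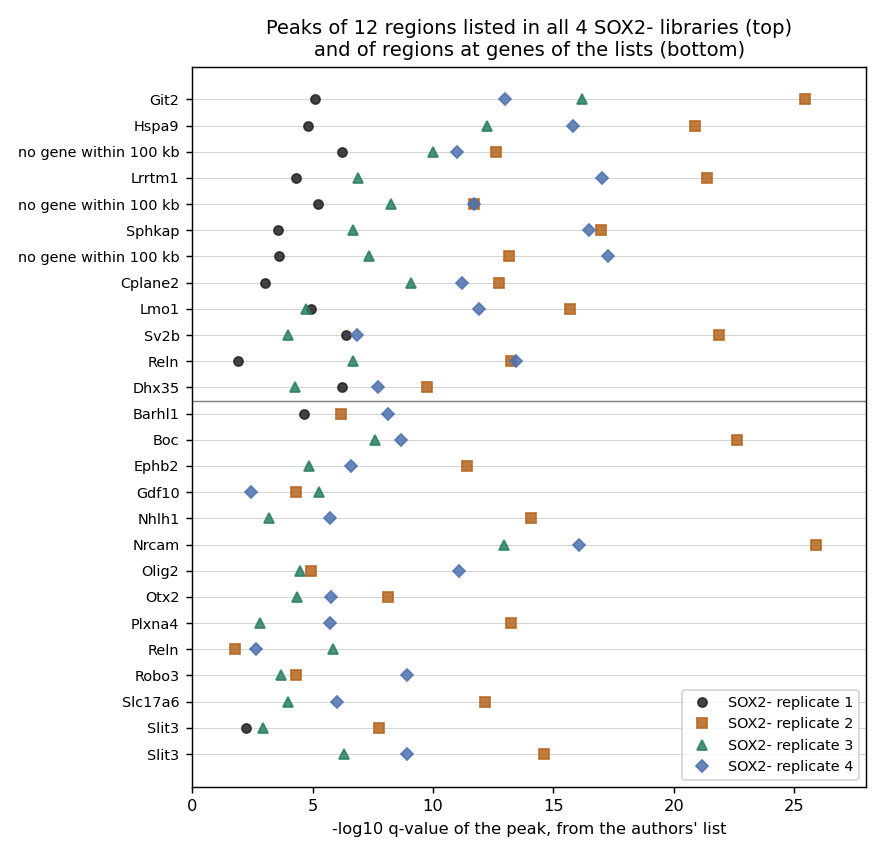
Points give the authors' -log10 q-value (horizontal axis) of the peak in each SOX2- library for 12 regions listed in all 4 libraries (above the line) and for regions at named genes of the lists (below it), by nearest gene on the vertical axis. Replicate 2 (squares) holds the highest value in 9 of the 12 regions above the line, and Nrcam and Boc stand farthest right among those below it.

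At gene ends, 18 bulk-only regions were found, and some are named here after their values were seen. Olig3, a bHLH factor of the rhombic lip from which granule progenitors come, had one inside its span at chr10:19357139-19357615 (-log10 q-values of 5.83, 3.39 and 4.71 in SOX2- replicates 2, 3 and 4). Aldh1a2, which makes retinoic acid, had one 0.466 kb before its start at chr9:71215101-71215545 (4.45, 3.65 and 4.50). Prkcd (3.56, 2.38 and 5.47) and Ttyh2 (7.66, 5.48 and 4.28), whose sequences are printed above, had mean score percentiles of 12.7 and 32.2 over the lists in which they appeared.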

How the data were processed

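ATAC-seq peak lists of 12 libraries were analysed on mm10. The read aligner Bowtie2 and the peak caller MACS2 are named, without settings, per the submitters' processing notes, and 1 list was deposited per library. The deposited lists give for each peak the authors' score, the fold enrichment over background (a ratio), and the -log10 p-value and -log10 q-value. No read counts are held, so depth is unknown, and scores were ranked within a list only.

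Peaks on 19 autosomes and chromosome X were merged where they overlapped by at least 1 bp. Regions were placed by midpoint on 21631 protein-coding gene spans of RefSeq GRCm38.p6, at a gene end within 1 kb and otherwise to the nearest gene within 100 kb. Intervals are 95% exact (Clopper-Pearson) binomial intervals. The members and gene lists were chosen with earlier results of these data known. Genes are named where a region is among the 12 highest by mean score percentile of those in 4 of 4 SOX2- libraries, where a gene has 3 or more regions (none had), or where a gene of the 18 lists has a region, except that some such genes are not reported here. The merging and the rule were tested on simulated data. Sequences come from RefSeq promoter windows, since no genome was used here, so motifs were searched in those windows and not around summits, and the 17 regions on chromosome 18 were not searched for promoters. Alternatives varied the libraries, peak threshold, list length and merging. Python 3.11.15, numpy 2.4.6, pandas 2.3.3 and scipy 1.17.1 were used.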

Additional observations from a re-analysis of the deposited data

Results flagged for a closer look

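Of 46 groups of 4 libraries, 3 (6.52%) had a library whose gap to the nearest other was large for the group's range. Chance marks about 1 in 20 groups, but this rate does not hold for tied counts or for peaks that the rule used. The flags therefore carry no test. SOX2- replicate 1 listed 51 of the 342 bulk-only regions, far below the 342, 315 and 341 of replicates 2 to 4, and its list was the shortest at 7009 peaks. The part of list length in this gap was not tested. The rule asked for 3 of 4 SOX2- lists, so these counts follow in part from the choice. At the Sv2b region the -log10 q-value was 21.9 in SOX2- replicate 2 and 3.98 to 6.86 in the other libraries of SOX2- cells. At Olig2, SOX2- replicate 2 listed 1 region besides the bulk-only one, and the other SOX2- libraries 0.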

How the results depend on the processing

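The number of regions meeting the rule depends on the peak threshold more than on the merging. It was 23 (18 genes) where all 4 SOX2- libraries had to list a region, 219 (173 genes) at a -log10 q-value of at least 5, 131 (109 genes) in the upper 50% of each list and 282 with equal numbers of peaks, and merging summit windows or across gaps gave 336 and 339. The share at gene ends was 8.70% in 4 of 4 libraries, 18.4% with equal numbers of peaks and 9.92% in the upper 50% against 5.26% under the rule as given, and the cause was not tested. The share inside genes was 52.2% in 4 of 4 and 37.9% with equal numbers, and that between genes 39.1% and 43.6%. The median score percentile was 61.2 with equal numbers, 53.5 at the stricter q-value and 67.0 in the upper 50%, where the choice itself keeps high scores; these were added after seeing the data.

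Leaving out 1 library gave 23 to 472 regions, 18 to 378 genes, 4.76% to 12.5% at gene ends, 42.0% to 52.2% inside genes, 37.5% to 51.6% between genes and a median percentile of 31.5 to 41.3. The number moved by over 1.5 times without SOX2- replicate 2 (23), replicate 3 (50) or replicate 4 (24) and was 315 without replicate 1. In each of the former the rule requires a peak in replicate 1, whose list holds 7009 peaks. No paired analysis was possible because the labels do not say whether same-numbered libraries share a tumour and the 1 permutation test, on 2 libraries against 2, fits no model. The alternative of motifs within 100 bp of summits was not run. Peak lists without read counts cannot tell an unlisted region from a closed one.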

Other observations

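Bulk-only regions lay at some genes of synapses and ion channels, a group put together after the list was seen, with no test and no share over all such genes. It counted 21 genes with 22 regions, of which 18 lay inside the gene span and 4 were listed in all 4 SOX2- libraries. Among them were the adhesion genes Nrxn3, Nlgn1, Lrrtm1, Tenm2 and Tenm4, the presynaptic genes Bsn, Sv2b and Unc13c, the receptor genes Grin2a, Grm8, Gabrg1 and Gabbr2, and the channel genes Cacna1c and Kcnj12. The median span of the 21 genes, each counted once, was 528.7 kb. Over all bulk-only regions inside a gene span, with a gene counted once per region, the median span was 149 kb.

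The 10 genes with 2 bulk-only regions were Ank3, Cacng2, Fto, Gm1043, Ldlrad4, Opa1, Reln, Slc39a11, Slit3 and Tmtc2, with 13.3 to 547 kb between the regions. At Cacng2, which encodes an auxiliary subunit of AMPA receptors, the other regions numbered 1, 3, 1 and 3 in SOX2- replicates 1 to 4 and 1 in each of the 8 SOX2+ libraries. Of the 273 genes, 22 had no region in any SOX2+ library. Among all 13394 genes with a region in at least 1 SOX2- library, 564 (4.21%) had none. For 14 of the 22 the bulk-only region was the sole region, so the rule fixed this. The other 8 included Barhl1, Grin2a, Hs3st4 and Kcnj12, which had 3 or more regions each. Of 4957 genes with at least 3 regions, 1 of them in a SOX2- library, 24 had none in any SOX2+ library.

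Bulk-only regions were spread over the chromosomes, with 1 of the 342 (0.292%) on chromosome 19, which held 2.69% of all merged regions, and 17 (4.97%) on chromosome 18, which held 3.25%. Other regions at the 273 genes made up 27.7 ± 7.23 of every 1000 regions in SOX2- libraries and 27.8 ± 3.19 in SOX2+ libraries (SD, n = 4 each), a difference smaller than the spread between libraries.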
